A study of Homo sapiens with 6 samples.

Results

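The genes described here encode 10 interleukin receptor chains of B cells: IL2RA, IL2RB, IL2RG, IL4R, IL6R, IL6ST, IL7R, IL10RA, IL13RA1 and IL21R. They were taken by symbol from a table of 23459 genes, where each had 1 row, and 7 of the 10 had enough counts to be tested among 12079 genes. The RNA came from Raji, a human Burkitt's lymphoma cell line with a germinal centre B cell origin. IRF4-overexpressing cells (3 libraries) carried a lentivirus with human IRF4 cDNA, and control cells (3 libraries) carried the empty vector. All were infected for 5 days and then kept for 7 days in puromycin at 3 µg/ml, so the cells compared are pools that survived selection and not single clones. The labels do not say whether the 3 replicates of a group were separate infections or cultures, so p-values cover only library-to-library spread, possibly technical.

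Interleukin receptors of this kind have no enzyme of their own. A chain that binds the cytokine pairs with a shared chain, JAK kinases held on the chains phosphorylate the tails, and STAT factors dock there and move to the nucleus. IL2RG, the common gamma chain, is shared by the receptors for IL-2, IL-4, IL-7 and IL-21. IL6ST (gp130) is shared by the IL-6 family, and IL10RB by the IL-10 family. In germinal centres, IL-4 and IL-21 from T helper cells sustain B cells and direct class switching and plasma cell formation.

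Totals ran from 27681979 to 46210702 counts per library. Levels are given as CPM, the usual unit of read counts scaled by library size, here with TMM factors. IRF4 itself was at 150, 120.5 and 125.4 CPM in IRF4-overexpressing libraries and at 1.02, 1.38 and 1.37 CPM in control libraries. The 10 B cell markers, MS4A1 among them, summed to 2470 to 2680 CPM in IRF4-overexpressing and 2450 to 2660 CPM in control libraries. Of 16 T and NK cell markers, 12 had fewer than 10 counts over all 6 libraries and 6 had none (CD2, CD7, CD8A, CD8B, GNLY and NCAM1). Their sum was 1.05 to 1.30 CPM in IRF4-overexpressing and 0.558 to 1.07 CPM in control libraries. Within the groups, the libraries separated along 1 axis with 74.3% of the variance left in log2 CPM once group means were removed. IRF4-overexpressing replicates 2 and 3 and control replicate 1 lay on side A, and IRF4-overexpressing replicate 1 and control replicates 2 and 3 lay on side B. The labels name no batch for this split, and each side holds a group with a single library. The sides are not even: axis scores were 0.741, -0.396 and -0.345 in IRF4-overexpressing replicates 1, 2 and 3. In control replicates 1, 2 and 3 they were -0.335, 0.107 and 0.228. IRF4-overexpressing replicate 1 thus lay farthest out, well beyond the control libraries on its side.

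Of the 7 tested receptor genes, IL2RA and IL10RA rose with IRF4 and 0 fell. IL2RA, the alpha chain that raises the affinity for IL-2 (CD25), rose 3.60-fold from a very low level, and IL10RA, the chain that binds IL-10, rose 1.52-fold. IL21R, IL4R, IL7R, IL2RG and IL6ST did not pass the test, and IL2RB, IL6R and IL13RA1 had too few counts for it. The test was edgeR's quasi-likelihood F-test with Benjamini-Hochberg adjustment over all 12079 genes and a threshold of 0.05. By that rule 2.98% of all tested genes were higher and 0.182% lower in IRF4-overexpressing libraries, 3.16% in all. The median log2 fold change was 0.02 over the 7 receptor genes and 0.01 over all tested genes. In bulk RNA, a change in the number of cells that express a gene and a change in RNA per cell cannot be told apart.

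**Figure D1:**
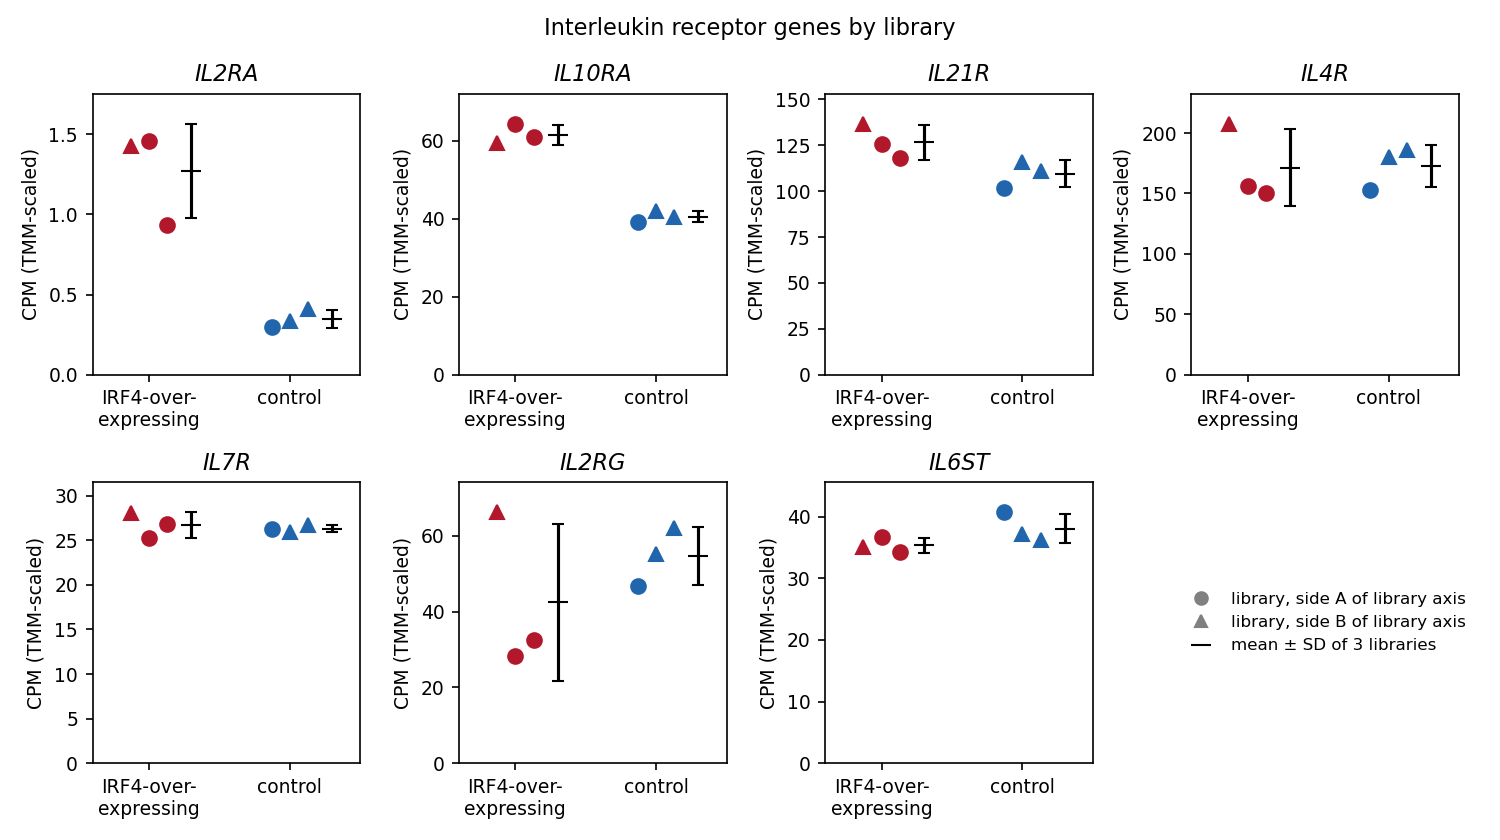
CPM of the 7 tested receptor genes in each library, with IRF4-overexpressing libraries in red on the left and control libraries in blue on the right of each panel. Circles and triangles mark side A and side B of the library axis, and bars give the mean ± SD of 3 libraries. IL2RA and IL10RA are higher in every IRF4-overexpressing library, IL7R is level, and IL2RG is high in 1 IRF4-overexpressing library and low in the others.

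IL10RA (Entrez gene 3587) had 59.3, 64.4 and 61.0 CPM in IRF4-overexpressing libraries, against 39.1, 42.0 and 40.4 CPM in control libraries. The 3 IRF4-overexpressing libraries lay close together and well above the 3 control libraries. The means were 61.6 ± 2.59 and 40.5 ± 1.41 CPM (SD, n = 3 each), and the log2 fold change was 0.60 (SE 0.082, 95% interval 0.41 to 0.80, edgeR adjusted p = 0.0131). Within side A the log2 fold change was 0.67 and within side B 0.56, given as values only, since each side sets 2 libraries against 1 and the sides come from these same counts. The call is close to the threshold: without single libraries the log2 fold change was 0.57 to 0.62, but the edgeR adjusted p passed only when IRF4-overexpressing replicate 1 was left out (6.27e-04) and was 0.0617 to 0.105 without any other library.

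IL10RA forms the IL-10 receptor with IL10RB, the chain it shares with related receptors. IL10RB was at 7.53, 6.18 and 5.72 CPM in IRF4-overexpressing and 5.08, 5.13 and 6.89 CPM in control libraries, and these groups overlapped (log2 fold change 0.18, SE 0.176, edgeR adjusted p = 0.537). Per kilobase of gene width, IL10RA exceeded IL10RB by ratios of 3.93, 5.19 and 5.32 in IRF4-overexpressing and 3.84, 4.07 and 2.92 in control libraries. The largest control ratio lay above the smallest IRF4-overexpressing one, so the ratio did not separate the groups. IL10, the gene of the cytokine, had 5.64, 5.56 and 5.74 CPM in IRF4-overexpressing libraries and 2.14, 2.94 and 2.30 CPM in control libraries. IL10 thus rose beside its binding chain, with a log2 fold change of 1.21 (SE 0.151 and edgeR adjusted p = 0.00952). Without control replicate 1 or 3 its edgeR adjusted p was 0.0619 and 0.0693.

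The stretch before the annotated start of IL10RA is shown because this gene rose and because it holds a match to an AP-1 element. BATF and JUN factors bind AP-1 letters, and at composite elements they do so next to IRF4. Only the AP-1 letters were searched, and a composite of AP-1 and IRF letters was not. The 250 bases lie at chr11:117989695-117989944 on the + strand of GRCh38.p14 (RefSeq), and capitals mark the match.
IL10RA: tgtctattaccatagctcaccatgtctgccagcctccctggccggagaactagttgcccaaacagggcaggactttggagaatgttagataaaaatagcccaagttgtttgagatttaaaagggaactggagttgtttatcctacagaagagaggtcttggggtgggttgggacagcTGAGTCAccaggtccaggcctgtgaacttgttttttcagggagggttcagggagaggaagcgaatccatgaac
The AP-1 letters TGANTCA, which read the same on both strands, occurred at bases -73 to -67 counted from the annotated start of IL10RA. Of the 9 receptor genes with a promoter in the table, only IL10RA and IL6R held this match in the 300 bases searched (250 before and 50 after the start). Of 35116 such windows over all genes, 7.71% held it. The interferon response element core (GAAA, then NN, then GAAA), the ETS-IRF composite letters (GGAA, then NN, then GAAA) and the STAT letters TTCNNNGAA were found in 0 of the 9 windows, on either strand, and in 3.57%, 2.82% and 7.66% of all windows. The count tables hold no binding data, so these matches are a description of the letters only.

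IL2RA (Entrez gene 3559) had 49, 54 and 45 counts in IRF4-overexpressing libraries, against 12, 9 and 15 counts in control libraries. As CPM these were 1.42, 1.46 and 0.932 in IRF4-overexpressing libraries and 0.299, 0.335 and 0.410 in control libraries. The groups did not overlap, although IRF4-overexpressing replicate 3 was clearly below the other two. The means were 1.27 ± 0.294 and 0.348 ± 0.0569 CPM (SD, n = 3 each), and the log2 fold change was 1.85 (SE 0.277, 95% interval 1.19 to 2.50, edgeR adjusted p = 0.0176). All 6 libraries were over the low-count filter, so the gene did not enter the test through the higher group alone. Of the 1886 tested genes with a mean of 0.3 to 3 CPM, the class IL2RA belongs to, 8.06% were called higher.

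The log2 fold change of IL2RA was 1.95 within side A and 1.94 within side B, again as values with a lone library in 1 group. Without single libraries it was 1.73 to 2.04. The edgeR adjusted p passed without IRF4-overexpressing replicate 1 or 3, and was 0.078, 0.11, 0.1 and 0.0756 without IRF4-overexpressing replicate 2 and control replicates 1, 2 and 3. CD25 also marks activated and regulatory T cells. Of the 16 T and NK cell markers, CD3G (5, 7 and 12 counts in IRF4-overexpressing and 3, 2 and 5 in control libraries) and TRAT1 (2, 4 and 2 counts in IRF4-overexpressing and 0 in each of the control libraries) were higher with no overlap in CPM, and the others overlapped or had 0 counts. CD3D had 0, 2 and 0 counts in IRF4-overexpressing and 0 in each of the control libraries, and CD3E had 0, 1 and 3 counts in IRF4-overexpressing and 0, 1 and 1 in control libraries. CD247, the only T and NK cell marker with enough counts to test, had a log2 fold change of -0.03 (edgeR adjusted p = 0.962), a value of either sign when single libraries were left out. The part of these markers in the IL2RA values was not tested.

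The bases before the IL2RA start are shown as the other receptor gene that rose, and none of the 5 motifs searched matched in its window. They lie at chr10:6062368-6062617 on the - strand of GRCh38.p14 (RefSeq), and are printed in the direction of the gene with no capitals, since nothing matched.
IL2RA: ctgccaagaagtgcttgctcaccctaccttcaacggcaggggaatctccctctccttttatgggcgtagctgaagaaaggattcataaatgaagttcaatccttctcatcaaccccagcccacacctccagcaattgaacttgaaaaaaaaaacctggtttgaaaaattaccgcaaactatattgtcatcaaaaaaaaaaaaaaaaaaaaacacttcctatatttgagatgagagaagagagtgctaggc
G and C made up 40% of these bases, against 48.8% for IL10RA. IL2RA alone binds IL-2 weakly and carries no signal, which needs IL2RB and IL2RG. IL2RB (Entrez gene 3560), the beta chain of the IL-2 and IL-15 receptors, had 3, 0 and 1 counts in IRF4-overexpressing libraries and 1, 4 and 3 counts in control libraries. The ratio of its summed counts, IRF4-overexpressing over control and scaled by TMM-adjusted library size, was 0.433. Its exact 95% counting interval was 0.0954 to 1.62, so a difference was not detectable at this depth. The exact two-sided permutation test gave p = 0.3, where 0.1 is the smallest that 3 against 3 libraries can give. Thus IL2RA was higher while IL2RB stayed at a few counts in each group.

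The chains that pair with IL2RG came next. IL21R (Entrez gene 50615), the receptor for the T helper cytokine IL-21, had 136.8, 125.5 and 117.9 CPM in IRF4-overexpressing libraries, against 101.9, 116.0 and 110.9 CPM in control libraries. The lowest IRF4-overexpressing library was just above the highest control library. The log2 fold change of 0.21 (SE 0.0998, 95% interval -0.03 to 0.45) did not pass (edgeR adjusted p = 0.289). Its value was 0.25 within side A and 0.30 within side B. With a term for the sides it was 0.26 (edgeR adjusted p = 0.0453), a p-value that is too small because the split into sides comes from the same counts. IL21R-AS1, an antisense gene at the same locus, had 2, 0 and 1 counts in IRF4-overexpressing and 1, 4 and 3 counts in control libraries. With IL2RA and IL10RA, IL21R made 3 of 7 tested receptor genes that were higher with no overlap between the groups, beside 13.5% of all tested genes that were higher and 11.9% that were lower in this sense (25.4% in all).

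IL4R (Entrez gene 3566), the alpha chain that binds IL-4, was the receptor gene with the highest level. It had 207.8, 156.0 and 150.0 CPM in IRF4-overexpressing libraries and 153.0, 179.8 and 185.7 CPM in control libraries. IRF4-overexpressing replicate 1 was the highest of all 6 and replicate 3 the lowest, so the control libraries lay inside the range of the IRF4-overexpressing ones. The log2 fold change was -0.01 (SE 0.152, 95% interval -0.37 to 0.35, edgeR adjusted p = 0.963), which in fold terms runs from 0.773 to 1.27. Its value was -0.01 within side A and 0.22 within side B. Of the variance of log2 CPM within groups, 97.3% lay along the library axis for IL4R, against a median of 75.6% over all tested genes. What the axis contributed to the group values was not tested.

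The IL4R window is shown because the series concerns octamer factors and it was the only one of the 9 receptor windows with their ATGCAAAT octamer, searched on both strands. It lies at chr16:27313724-27313973 on the + strand of GRCh38.p14 (RefSeq), and capitals mark the octamer at bases -115 to -108.
IL4R: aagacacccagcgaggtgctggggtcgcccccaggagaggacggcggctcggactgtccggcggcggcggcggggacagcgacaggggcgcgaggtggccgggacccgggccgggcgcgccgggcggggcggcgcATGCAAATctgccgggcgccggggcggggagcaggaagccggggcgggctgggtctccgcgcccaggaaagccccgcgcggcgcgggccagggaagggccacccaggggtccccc
The octamer occurred in 1.77% of the windows of all genes. G and C made up 80.8% of the IL4R bases shown.

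IL2RG (Entrez gene 3561), the shared gamma chain, had 66.2, 28.4 and 32.6 CPM in IRF4-overexpressing libraries, against 46.7, 55.1 and 62.0 CPM in control libraries. IRF4-overexpressing replicate 1 stood above all control libraries and replicates 2 and 3 below all of them. The log2 fold change was -0.36 (SE 0.319, 95% interval -1.12 to 0.39, edgeR adjusted p = 0.495). The value was -0.62 within side A and 0.21 within side B, each with a lone library in 1 group. Without IRF4-overexpressing replicate 1 it was -0.85 and passed (edgeR adjusted p = 0.00134), in a fit whose 2 remaining IRF4-overexpressing libraries both lie on side A. Along the library axis lay 96.6% of its variance within groups. Whether the 2 sides differ in the effect was not tested.

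IL7R (Entrez gene 3575), the alpha chain of the IL-7 receptor and best known in B cell precursors, was close to level across the libraries. It had 28.1, 25.2 and 26.8 CPM in IRF4-overexpressing libraries and 26.2, 25.9 and 26.7 CPM in control libraries. The groups overlapped, and the log2 fold change was 0.02 (SE 0.089 and edgeR adjusted p = 0.881), with a 95% interval in fold terms of 0.878 to 1.18. A change of the size seen in IL10RA is outside that interval.

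**Figure D2:**
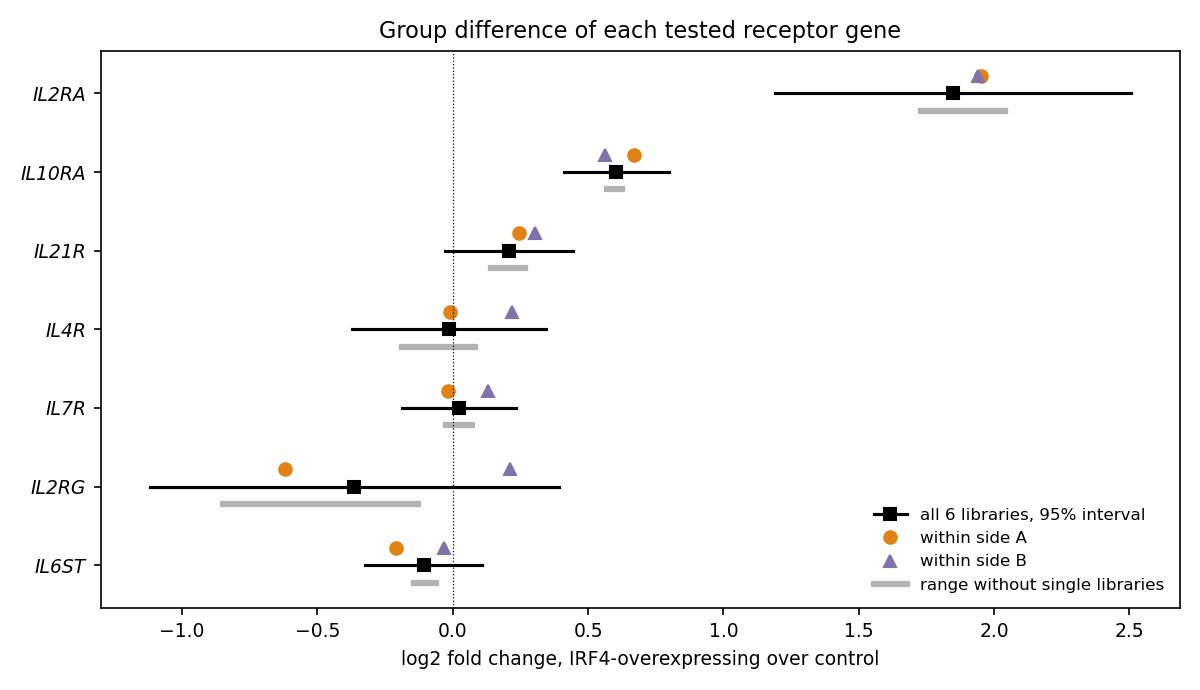
Log2 fold changes, IRF4-overexpressing over control, of the 7 tested receptor genes. Squares with lines are the fit of all 6 libraries with its 95% interval, circles and triangles the values within side A and side B, and grey bars the range when single libraries are left out. IL2RA at 1.85 and IL10RA at 0.60 lie to the right of 0 in each, while IL2RG lies at -0.62 within side A and 0.21 within side B.

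Of the IL-6 receptor chains, IL6ST was tested and did not pass, and IL6R had too few counts. IL6ST (Entrez gene 3572), the shared signalling chain gp130, had 35.1, 36.7 and 34.3 CPM in IRF4-overexpressing and 40.7, 37.2 and 36.2 CPM in control libraries. The groups overlapped by a narrow margin, and the log2 fold change was -0.11 (SE 0.0909, 95% interval -0.32 to 0.11, edgeR adjusted p = 0.482). IL6R (Entrez gene 3570), which binds IL-6 itself, had 5, 10 and 6 counts in IRF4-overexpressing libraries and 3, 2 and 2 counts in control libraries. That is 0.145, 0.270 and 0.124 CPM against 0.0747, 0.0744 and 0.0547 CPM, with no overlap. The ratio of the sums, scaled by TMM-adjusted library size, was 2.60. Its exact 95% counting interval was 1.06 to 7.23, which covers counting error only. The exact two-sided permutation test gave p = 0.1, the smallest possible here, and with no low-count filter the edgeR adjusted p was 0.315. Per kilobase, IL6R was 0.0058, 0.0103 and 0.00508 of IL6ST in IRF4-overexpressing libraries and 0.00257, 0.0028 and 0.00211 of it in control libraries.

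IL13RA1 (Entrez gene 3597) binds IL-13 and can replace IL2RG as the partner of IL4R. It had 0, 1 and 8 counts in IRF4-overexpressing libraries and 0 counts in all 3 control libraries. Against a floor of 3 counts for the control libraries summed (0.029 CPM) the level was at least 2.6-fold higher, but 8 of its 9 counts came from replicate 3. The exact two-sided permutation test gave p = 0.4. IL2RG was present at 28.4 to 66.2 CPM throughout, so of the 2 partners of IL4R only IL2RG was measured above a few counts.

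Levels of different genes were compared per kilobase of the deposited gene width. In IRF4-overexpressing libraries the order was IL4R (43.5 ± 8.09 CPM per kilobase), IL2RG (27.6 ± 13.5), IL21R (24.9 ± 1.86), IL10RA (11.2 ± 0.47), IL7R (5.64 ± 0.305), IL6ST (3.85 ± 0.136) and IL2RA (0.395 ± 0.0915; SD, n = 3 each). In control libraries the same 7 genes had the same order, at 43.9 ± 4.44, 35.6 ± 4.99, 21.5 ± 1.40, 7.36 ± 0.257, 5.55 ± 0.0821, 4.14 ± 0.258 and 0.108 ± 0.0177 CPM per kilobase (SD, n = 3 each). IL4R and IL2RG had overlapping ranges in both groups, and so had IL2RG and IL21R in IRF4-overexpressing libraries. The other neighbours among the 7 had ranges that did not overlap. Below them came IL6R, IL13RA1 and IL2RB in IRF4-overexpressing libraries (0.0274, 0.0152 and 0.0089 CPM per kilobase, each overlapping the next), and IL2RB (0.0211), IL6R within its range, and IL13RA1 (0) in control libraries. IL10RA was above 56.3% of all tested genes in IRF4-overexpressing libraries and above 45.1% in control libraries on this scale, and IL2RA above 8.99% and 3.63%.

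**Figure D3:**
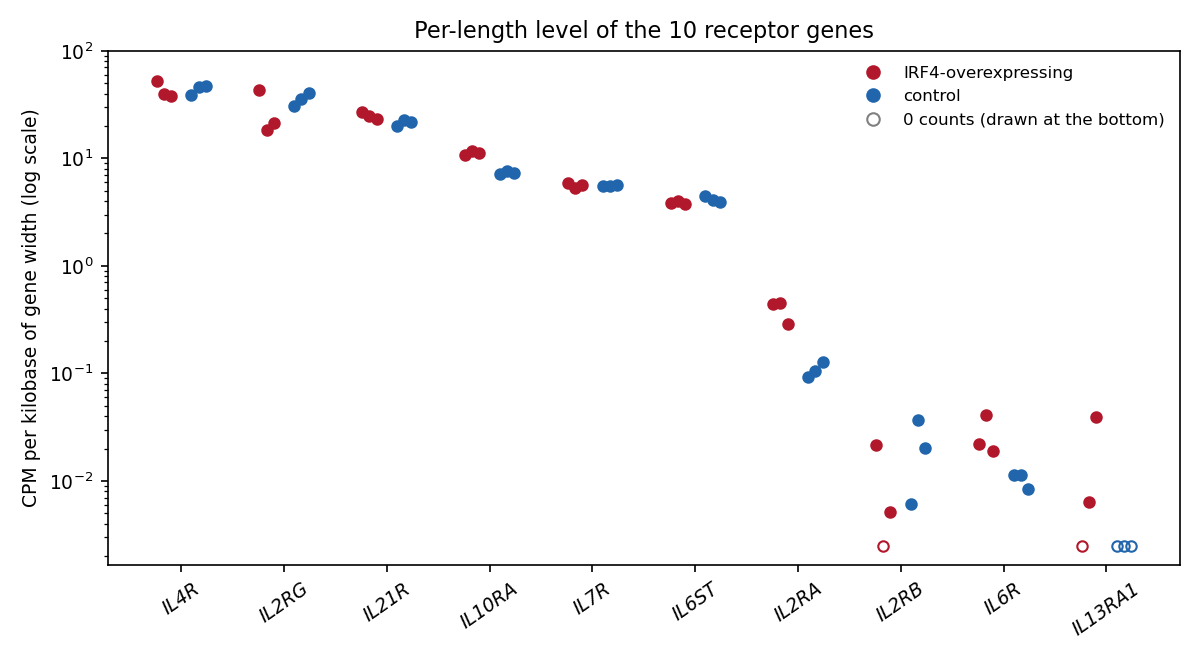
CPM per kilobase of gene width (log scale) of the 10 receptor genes in each library, IRF4-overexpressing in red to the left of control in blue. IL4R leads in both groups with means of 43.5 and 43.9, IL2RA sits far below IL6ST at 0.395 and 0.108, and IL2RB, IL6R and IL13RA1 lie at the bottom, where open circles are libraries with 0 counts.

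Because IL2RG is shared, its partners were also set against it in each library. The ratio of IL4R to IL2RG per kilobase was 1.22, 2.14 and 1.79 in IRF4-overexpressing libraries and 1.28, 1.27 and 1.17 in control libraries. IL21R to IL2RG gave 0.622, 1.33 and 1.09 in IRF4-overexpressing and 0.657, 0.635 and 0.539 in control libraries. For IL7R to IL2RG the ratios were 0.138, 0.288 and 0.267 in IRF4-overexpressing and 0.182, 0.153 and 0.139 in control libraries. In each of the 3 ratios IRF4-overexpressing replicates 2 and 3 were above all control libraries and replicate 1 was within or below their range, which follows the IL2RG values.

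Some genes followed the receptor genes closely across the 6 libraries, by Pearson correlation of log2 CPM among tested genes that averaged 1 CPM or more. These correlations are descriptions, since the libraries share the group difference and the library axis. The genes named were also picked as the highest of 10965 or 10966 compared, over only 6 libraries. Such picking alone gives high values of r, and shared control was not tested. IL10RA was followed best by BBC3 (r = 0.998) and MVP (r = 0.997), IL2RA by TMEM178B and NBPF14 (r = 0.990 each), and IL21R by APOL1 (r = 0.995) and RUSF1 (r = 0.994). IL2RG was followed by RHBDD1 (r = 0.999) and KDM6A (r = 0.998), and IL4R by LAPTM5 (r = 0.996) and RRBP1 (r = 0.996). For IL7R the nearest were ZNF37BP (r = 0.995) and PPM1A (r = 0.992), and for IL6ST MIR621 (r = 0.979).

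Around the receptors, 76 of 124 other cytokine pathway genes in 6 lists were tested, of which 8 rose and 0 fell, beside 2.98% of all tested genes that were higher and 0.182% that were lower. Among 13 tested of 35 other cytokine receptor genes, 1 rose and 0 fell, and their median log2 change was 0.38. The one was IL1R2, a decoy receptor that binds IL-1 without signalling, at 6.22, 9.59 and 8.43 CPM in IRF4-overexpressing and 1.54, 1.15 and 1.29 CPM in control libraries. It rose 6.04-fold, more than any tested gene of the 10 described here (log2 fold change 2.59, SE 0.212, edgeR adjusted p = 0.00198). IL1R1, which is also in the median of this list, was over the low-count filter in IRF4-overexpressing libraries only.

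Among the cytokine genes, 8 of 27 were tested, with a median log2 change of 0.84. Of these, OSM and IL11 were over the low-count filter in IRF4-overexpressing libraries only. The median thus holds genes that entered the test through the higher group. Beside 2.98% of all tested genes called higher and 0.182% lower, 2 of the 8 cytokine genes rose and 0 fell. EBI3, a subunit of IL-27 and IL-35, had 28.5, 26.9 and 28.8 CPM in IRF4-overexpressing and 8.24, 9.97 and 10.8 CPM in control libraries (log2 fold change 1.54, edgeR adjusted p = 0.00198), and the other was IL10. The genes of the cytokines IL-2, IL-9 and IL-21 had 0 counts in all libraries. IL-4 and IL-13, whose genes are IL4 and IL13, had at most 3 counts in any library.

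Below the receptors stand the JAK and STAT genes. JAK2, a kinase of several cytokine receptors, had 0.70 as its log2 fold change (SE 0.137 and edgeR adjusted p = 0.0485). That adjusted p was 0.097 to 0.198 without any single library other than IRF4-overexpressing replicate 1. With all 6 libraries the edgeR adjusted p was 0.0532 with RLE factors, 0.0588 with no low-count filter and 0.0568 with the filter of 1 CPM. It was 0.187 with the replicate block and 0.0247 with library sizes alone. DESeq2, limma-voom and the term for the library sides kept JAK2 under the threshold. JAK3, the kinase that binds IL2RG, had 1, 0 and 1 counts in IRF4-overexpressing libraries and 0 counts in control libraries. Whether the cells lack JAK3 RNA or the counting missed it was not tested, and the sources used here do not state how reads in overlapping genes were counted.

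Of 18 feedback inhibitors, 14 were tested and 0 passed (median log2 fold change -0.16). The smallest p-values belonged to the phosphatase genes PTPN6 (log2 fold change -0.76, edgeR adjusted p = 0.135) and PTPN11 (-0.36, edgeR adjusted p = 0.171). CISH, a STAT5 target that damps IL-2 signals, was listed at 0 in all libraries, and whether the cells lack its RNA or the counting missed it was not tested. Of 20 genes that cytokine receptors induce in B cells, 19 were tested (median log2 change 0.07), and 10 of the 19 had a positive log2 fold change. CCL17, among the 19, was over the low-count filter in IRF4-overexpressing libraries only. Beside 2.98% of all tested genes called higher and 0.182% lower, 3 genes of this list rose and 0 fell. These were BATF, an AP-1 factor and partner of IRF4, at 8.98, 11.4 and 11.1 CPM in IRF4-overexpressing and 4.98, 5.58 and 5.17 CPM in control libraries (95% interval of the log2 fold change 0.69 to 1.32, edgeR adjusted p = 0.0123), and the survival kinase genes PIM2 with a log2 fold change of 0.71 (SE 0.0994 and edgeR adjusted p = 0.0148) and PIM1 with 0.62 (SE 0.0973 and edgeR adjusted p = 0.0206). Without single libraries the edgeR adjusted p of BATF was at most 0.0743, that of PIM2 0.0803 and that of PIM1 0.114. Among 16 adaptors and trafficking factors, 15 were tested and 0 passed (median log2 fold change -0.14), with GAB2 at 1.46 and SHC1 at -0.36 (edgeR adjusted p = 0.0869 and 0.227).

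**Figure D4:**
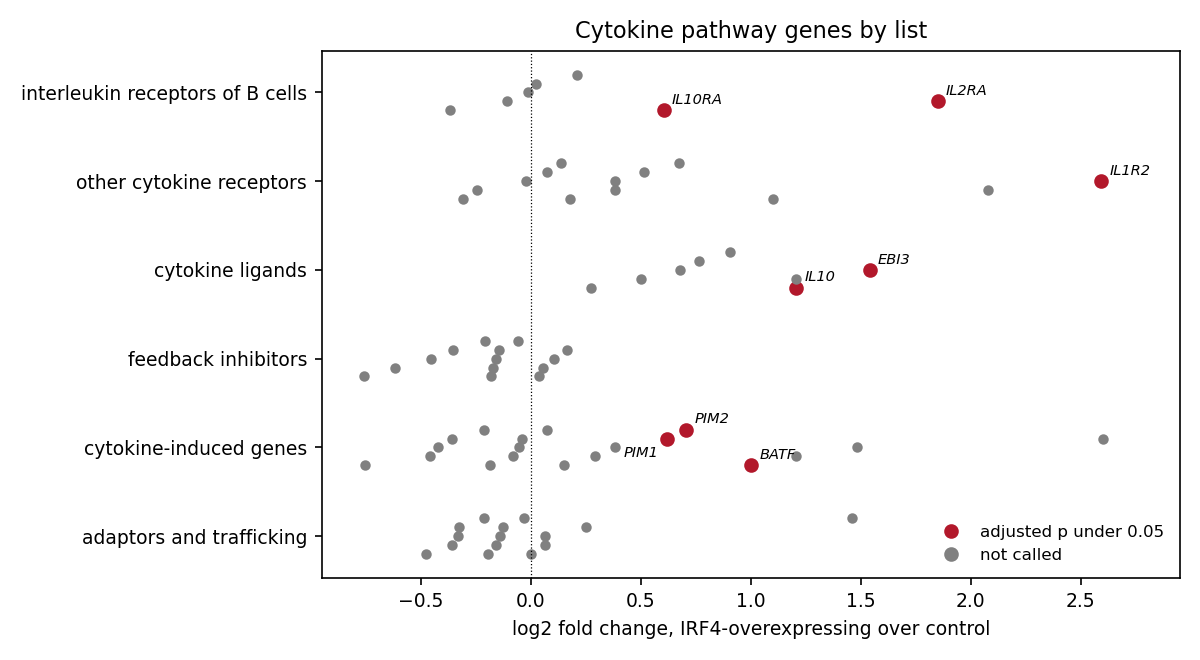
Log2 fold changes, IRF4-overexpressing over control, of the tested genes of the receptor set and of 5 of the cytokine pathway lists, 1 row per list and 1 point per gene. Red points with names passed edgeR's test at an adjusted p under 0.05 and all lie to the right of 0, with IL1R2 at 2.59, while no gene of the feedback or adaptor lists passed.

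Of 13 myeloid markers 5 were tested, and ITGAM and MS4A7 rose beside the receptor genes (log2 fold changes 1.92 and 1.18, edgeR adjusted p = 0.00256 and 0.00615). Over all tested genes, 2.98% were called higher. CSF1R (2.38, edgeR adjusted p = 0.0846), LYZ (0.18, edgeR adjusted p = 0.667) and CD68 (0.20, edgeR adjusted p = 0.623) did not pass, and the untested CD33 had means of 0.133 CPM in IRF4-overexpressing and 0.193 CPM in control libraries. The whole list summed to 10.8 to 13.7 CPM in IRF4-overexpressing and 5.17 to 5.48 CPM in control libraries. MPO, ELANE and S100A9 had 0 counts in all libraries. Of the B cell markers, 0 of 10 passed, with MS4A1 (log2 fold change 0.26, edgeR adjusted p = 0.174) and BLK (0.26, edgeR adjusted p = 0.196) nearest. The part of the myeloid markers in the values of IL10RA, IL2RA and IL1R2 was not tested.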

How the data were processed

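RNA-seq of 6 Raji libraries was used, and the authors' deposited table holds raw read counts per Entrez gene, with 1 column per library and 1 width per gene in bases. The control columns are called WT there, while per the labels these cells received empty vector. Per the submitters' processing notes the builds were mm9 and hg19; the aligner, counting tool and strand setting are not given in the sources used here. Of 23459 rows, 23308 matched a symbol in RefSeq's gene table. The others held 0.122% of counts.

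The group comparison used edgeR 4.0.16 under R 4.3.3: TMM, filterByExpr (minimum count 10), a group-only design, the two-sided quasi-likelihood F-test, Benjamini-Hochberg adjustment. SE is the absolute log2 fold change over the square root of F. The test was run first on simulated counts. Genes named besides the 10 receptor genes are IRF4, called members of each list (or the 2 with the smallest p), the 2 nearest in pattern, ratio partners, and genes at or near 0, which were chosen after their values were seen. A few genes so chosen are left unreported here. Members, lists and tests were chosen with earlier results of these data known. Alternatives were RLE factors, library sizes alone, 2 other filters, DESeq2 1.42.0, limma-voom (limma 3.58.1), a replicate block, a term for and fits within the library sides, and leaving out each library. Replicates of a group were not 1 library deposited again (chi-square per gene at least 6.74). Promoter windows are RefSeq's, of GRCh38.p14. Figures used matplotlib 3.10.9.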

Additional observations from a re-analysis of the deposited data

How the results depend on the processing

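Depth limits IL2RB, IL6R and IL13RA1, and IL2RA rests on 9 to 54 counts per library. IRF4 and IL6ST kept their direction and side of the threshold in all 16 alternatives, and RLE factors and limma-voom changed no call of a receptor gene. With library sizes alone the median over all tested genes was 0.10 (log2) and 13 genes were lower; IL4R then had a log2 fold change of 0.0808 (values of single genes here are log2 fold changes). The filter of 1 CPM in 3 libraries left IL2RA out, so 1 receptor gene was higher, and gave IL4R 5.13e-04. DESeq2 called 577 genes higher and 175 lower, and 14 and 2 of the pathway genes.

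Same-numbered libraries had deviations from their group means that correlated at -0.649, -0.219 and -0.467. This cannot settle whether same-numbered libraries were handled together, since the libraries of each number lie on opposite sides of the library axis. With the replicate block, 3 genes were higher and 0 lower, with 0 receptor and 0 pathway genes; IL2RA had 1.83 and IL10RA 0.60 (edgeR adjusted p = 0.187 and 0.176). With the side term, 709 genes were higher and 389 lower, 19 and 2 of the pathway genes, IL4R had 0.0928 and IL21R 0.26. Within side A, 2309 genes were higher and 3118 lower, 22 and 19 of the pathway genes and 1 receptor gene lower (IL2RG, -0.62); IL21R had 0.25, IL7R -0.0185 and CD247 0.194. Within side B, 858 were higher and 402 lower, 18 pathway genes and 4 receptor genes higher; IL2RG had 0.21, IL4R 0.22 and IL21R 0.30. CD247 had 0.0633 with library sizes alone and 0.00323 with limma-voom. Within a side, a group with a lone library is assumed to vary like the other. The cause of these shifts was not tested.

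Without single libraries, 120 to 2436 genes were higher and 3 to 3071 lower, both highest without IRF4-overexpressing replicate 1, and otherwise at most 156 and 3. Receptor genes numbered 0 to 2 higher and 0 to 1 lower, and pathway genes 3 to 20 and 0 to 23. Ranges of the log2 fold change were 1.73 to 2.04 for IL2RA, 0.57 to 0.62 for IL10RA, -0.85 to -0.13 for IL2RG, -0.187 to 0.0839 for IL4R, -0.0245 to 0.0712 for IL7R, 0.14 to 0.27 for IL21R and -0.29 to 0.33 for CD247.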

Other observations

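Several cytokine genes below or near the limits of the test are given here as values chosen after they were seen. IL27, whose product pairs with that of EBI3, had 8, 11 and 9 counts in IRF4-overexpressing libraries and 1, 0 and 1 counts in control libraries. IL32 had 26, 8 and 14 counts in IRF4-overexpressing and 6, 2 and 3 counts in control libraries. IL15, a cytokine that signals through IL2RB and IL2RG, had 5, 7 and 21 counts in IRF4-overexpressing and 2, 4 and 3 counts in control libraries. The groups overlapped in CPM for IL15, and most of its counts came from IRF4-overexpressing replicate 3. Among receptors, IL15RA (log2 fold change 0.51, edgeR adjusted p = 0.0515) came close to the threshold without passing it. IL1R1 (2.08, edgeR adjusted p = 0.0575) did not pass either. It had 11, 16 and 18 counts in IRF4-overexpressing and 3, 1 and 5 counts in control libraries. It was over the low-count filter in IRF4-overexpressing libraries only, so its p-value cannot be taken as support.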
